A study of Mus musculus with 7 samples.

Results

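The genes described here are 36 genes of mitosis and cytokinesis, chosen by name as well-known components of cell division. All 36 had a row in the table of 54735 gene symbols, and all 36 were among the 17636 genes with enough counts to be tested. RNA was sequenced from cardiac cells that carried a genetic label and were sorted by green fluorescence from mouse hearts of pooled males and females. The mice were PostnMCM;R26eGFP at 7 days (Postn P7, n = 2 libraries), Tcf21MCM;R26eGFP at 7 days (Tcf21 P7, n = 2) and Tcf21MCM;R26eGFP at 30 days (Tcf21 P30, n = 3). MCM is MerCreMer, a recombinase that tamoxifen activates. It was expressed under the gene for periostin, a matrix protein of developing and activated fibroblasts, or under that for Tcf21, a transcription factor marking fibroblasts that reside in the heart. The green label, shared by all groups, is permanent once switched on, so a sorted cell need not have expressed the driver gene on the day of sorting. No Postn-traced cells of 30 days are among these libraries.

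In mitosis the kinase CDK1, activated by A-type and B-type cyclins, drives chromosome condensation and assembly of the spindle. Kinetochores attach chromosomes to spindle microtubules, the spindle checkpoint delays anaphase until all are attached, and the anaphase-promoting complex then destroys cyclin B and securin. A midzone of bundled microtubules finally places the contractile ring that divides the cell. Most of these genes are transcribed in G2 and mitosis and are silent in resting cells, and cardiac fibroblasts are known to divide in the neonatal heart and to become largely quiescent as it matures.

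Genes of this class are known to share a promoter element, the cell cycle genes homology region (CHR), through which the DREAM and MuvB complexes act, often near CCAAT boxes, the binding element of NF-Y. Promoter windows from RefSeq (GRCm38.p6), of one length around annotated start sites, were found for 32 of the 36 genes. The letters TTTGAA or TTCGAA, sought on both strands, were present in 25 of the 32 (78.1%), against 21.7% of all 27025 genes with a window. Within 50 bases of the start site they were present in 23 of 32 (71.9%), against 6.12% of all genes. CCAAT, on either strand, was present in 24 of 32 (75%), against 41.1%, and both motifs stood in one window in 21 of 32 (65.6%), against 8.61%. A gene counts where any of its windows holds a match, and matches of both motifs can share end letters. A match is a string of letters, not a measured binding site. The windows of 4 genes on which the results turn are given 5′ to 3′, with matches to either motif in capitals. They are Cdk1, whose transcript had the largest decrease with age (chr10:69352863-69353162, minus strand), the kinetochore gene Cenpf (chr1:189688037-189688336, minus strand), the spindle motor gene Kif11 (chr19:37376132-37376431, plus strand) and the cytokinesis motor gene Kif20b, which was not lower at 30 days (chr19:34922108-34922407, plus strand).
Cdk1: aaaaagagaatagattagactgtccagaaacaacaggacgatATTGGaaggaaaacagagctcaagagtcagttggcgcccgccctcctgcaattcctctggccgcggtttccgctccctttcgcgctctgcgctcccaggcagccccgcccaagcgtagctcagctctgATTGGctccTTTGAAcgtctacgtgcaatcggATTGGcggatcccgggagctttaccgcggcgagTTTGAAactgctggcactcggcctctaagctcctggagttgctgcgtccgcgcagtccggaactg
Cenpf: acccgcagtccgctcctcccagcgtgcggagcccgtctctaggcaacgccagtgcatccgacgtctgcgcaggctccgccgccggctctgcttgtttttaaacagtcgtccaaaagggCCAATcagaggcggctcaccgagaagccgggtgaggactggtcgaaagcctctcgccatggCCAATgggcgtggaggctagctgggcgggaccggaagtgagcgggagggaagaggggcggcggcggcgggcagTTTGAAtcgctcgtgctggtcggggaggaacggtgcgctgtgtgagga
Kif11: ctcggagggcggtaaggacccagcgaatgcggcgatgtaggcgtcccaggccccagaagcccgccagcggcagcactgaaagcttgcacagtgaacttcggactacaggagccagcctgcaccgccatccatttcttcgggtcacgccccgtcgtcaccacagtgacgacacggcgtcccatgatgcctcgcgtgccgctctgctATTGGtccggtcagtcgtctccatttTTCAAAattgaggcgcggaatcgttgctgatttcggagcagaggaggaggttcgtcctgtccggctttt
Kif20b: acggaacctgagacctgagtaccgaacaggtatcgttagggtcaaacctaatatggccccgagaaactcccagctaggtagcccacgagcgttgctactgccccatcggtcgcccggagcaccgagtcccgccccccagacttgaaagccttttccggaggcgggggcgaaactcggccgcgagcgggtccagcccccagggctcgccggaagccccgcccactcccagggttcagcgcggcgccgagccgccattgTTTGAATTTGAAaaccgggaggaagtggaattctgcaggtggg

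Cdk1 held 2 CHR and 3 CCAAT matches, Cenpf 1 and 2, Kif11 1 and 1, and Kif20b 2 CHR matches and no CCAAT. The pair of matches in Kif20b lay at 8 and 14 bases after the start site with no base between them. The median log2 change from Tcf21 P7 to Tcf21 P30 was -1.49 in the 25 genes with a CHR match and -1.38 in the 7 without. Nuf2, Mad2l1, Birc5 and Nusap1 held neither motif in these windows.

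**Figure D1:**
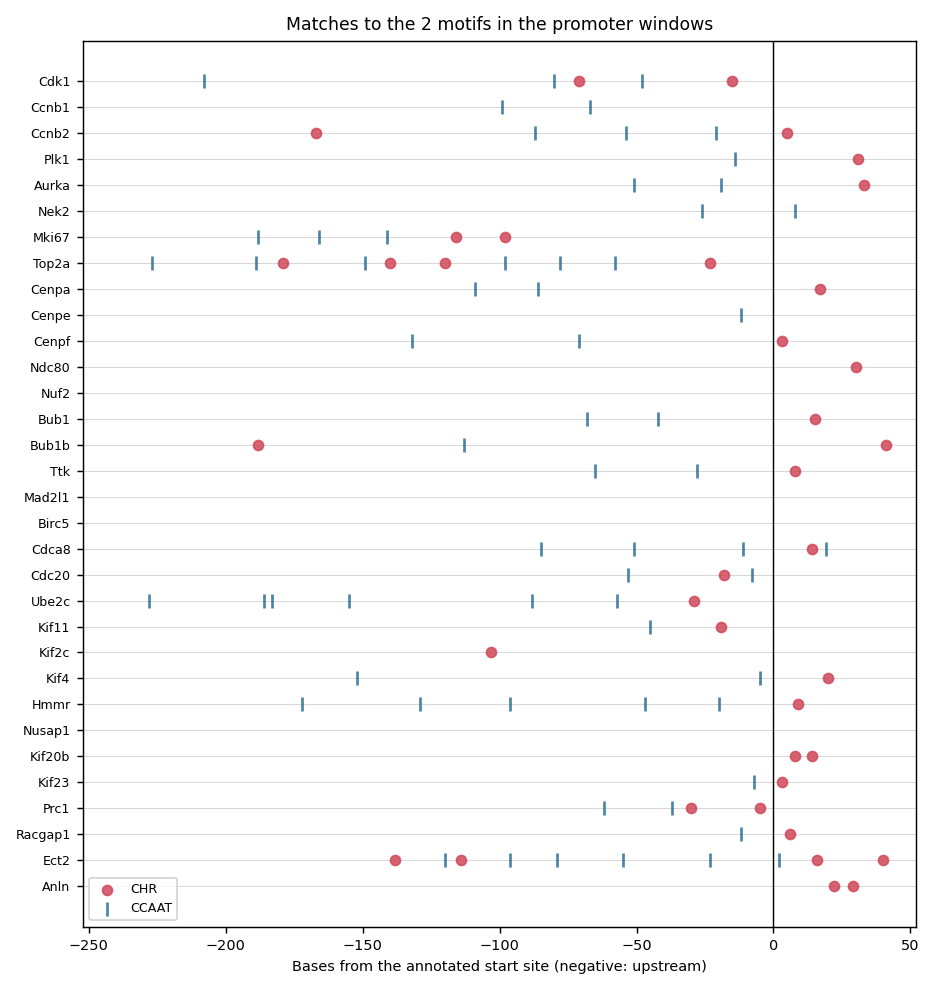
Positions of CHR matches (red points) and CCAAT matches (blue bars) in the promoter windows of 32 genes, in bases from the annotated start site. Of the 32 genes, 23 have a CHR match within 50 bases of the start; for Prc1 and Ect2 the matches of both annotated windows are drawn.

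Libraries held 15207835 to 18519528 counts, of which 5249 to 28049 fell on the 36 genes, and each gene had at least 20 counts in every library. All 12 fibroblast markers were detected, and their summed level was 37230 to 52640 CPM (counts put on one common library total) in all 7 libraries. Markers of other cells were present too. The 12 endothelial markers summed to 4260 CPM in Tcf21 P30 replicate 1 against 1122 and 1359 CPM in the other P30 libraries, and to 1800 CPM in Postn P7 replicate 1 against 1097 CPM in replicate 2. The 8 epicardial markers summed to 69.0 CPM in Postn P7 replicate 1 and 6.47 CPM in replicate 2, with Upk3b, Upk1b, Msln, Lrrn4 and Muc16 at 0 in the second. The 12 macrophage markers reached 1248 CPM in each Tcf21 P7 library but 361 to 656 CPM elsewhere. The 10 pericyte and smooth muscle markers were highest in the Postn P7 libraries (2695 and 1998 CPM) and in Tcf21 P30 replicate 1 (2151 CPM), and stood at 1022 to 1473 CPM in the others. Against Tcf21 P7, 10 of 12 macrophage markers were called lower in Postn P7 and 10 of 12 also in Tcf21 P30, the direction of the mitosis genes with age. Over all genes tested, 5.49% were called lower and 6.52% higher in Postn P7, and 15% lower and 16.7% higher in Tcf21 P30. Further calls in Postn P7 were 1 of 12 fibroblast markers lower, 1 of 10 pericyte markers higher and 2 of 6 tested Schwann markers higher. Further calls in Tcf21 P30 were 3 of 12 fibroblast markers higher and 3 lower, 1 of 10 pericyte markers higher, 2 of 10 cardiomyocyte markers lower, 2 of 6 Schwann markers higher and 1 of 7 erythroid markers lower. The 10 cardiomyocyte markers summed to 477 to 1242 CPM, the 7 erythroid markers to 68.9 to 621 CPM and the 8 Schwann cell markers, with Foxd3 at 0 throughout, to 13.8 to 60.9 CPM. The part of these cells in the results below was not tested. In sorted bulk RNA, fewer dividing cells and less RNA per dividing cell cannot be told apart.

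Transcripts of mitosis were most abundant in Postn P7, intermediate in Tcf21 P7 and least abundant in Tcf21 P30. Summed over the 36 genes, the Postn P7 libraries held 1483 and 1317 CPM, those of Tcf21 P7 1008 and 961 CPM, and those of Tcf21 P30 382, 333 and 339 CPM. The groups did not overlap in this sum. These CPM are scaled by TMM, which corrects library totals for composition. The highest library within Postn P7 and within Tcf21 P30 was in each case the one with the most endothelial transcripts. All 8 roles into which the genes were sorted had the same order of groups in their summed levels, without overlap.

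**Figure D2:**
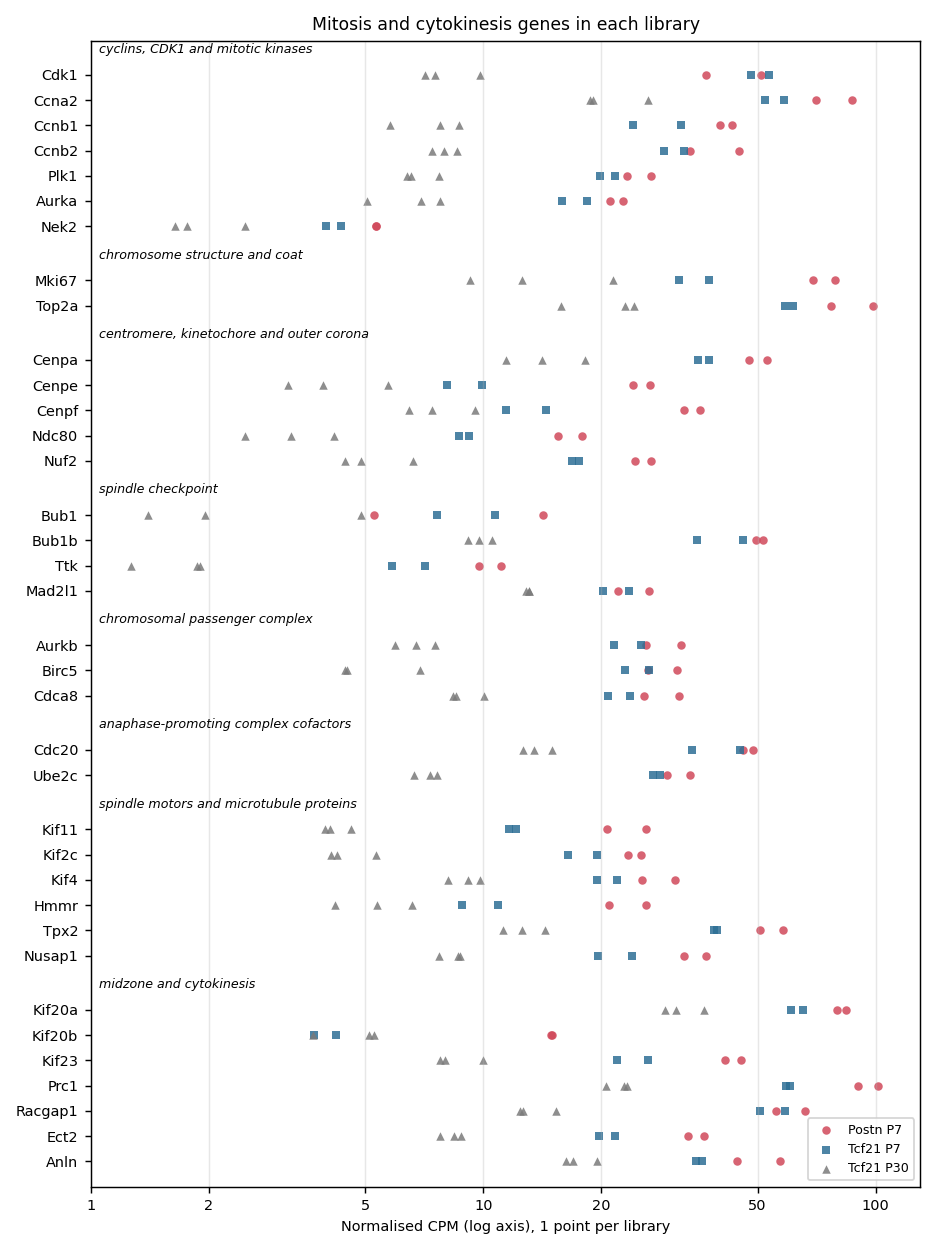
Normalised CPM of each of the 36 genes (log axis), with 1 point per library, grouped by role. The 3 libraries of Tcf21 P30 lie to the left of every P7 library for all genes except Kif20b, and Postn P7 lies right of Tcf21 P7 for 31 genes.

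The comparison of Tcf21 P30 with Tcf21 P7 addressed how Tcf21-traced cells differ between these ages of the heart. When tamoxifen was given is not stated in the sources used here, so a change within cells and a difference in which cells were labelled cannot be told apart. Of the 36 genes 34 fell with age and none rose by edgeR's quasi-likelihood test (adjusted p under 0.05 over all genes tested), where 15% of all genes tested were called lower and 16.7% higher. The libraries did not overlap for 35 genes, all lower at P30, where 29.9% of all genes were lower without overlap. The median log2 change was -1.46 over the 36 genes and 0.03 over all genes tested. Kif20b and Bub1 were the genes not called. With Tcf21 P7 replicate 1 or 2 left out, which leaves 1 Tcf21 P7 library, the median of the 36 genes was -1.42 or -1.48. The median over all genes tested was then 0.05 or 0.06. Leaving out the endothelial-rich replicate 1 of Postn P7 and of Tcf21 P30 leaves 1 Postn P7 library. The median was then -1.55 for the 36 genes and 0.01 over all genes.

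All 7 genes of cyclins, CDK1 and mitotic kinases fell. Cdk1, the kinase at the centre of mitotic entry (chromosome 10, 69335146 to 69352938), was measured at 48.1 and 53.4 CPM in Tcf21 P7 and at 9.78, 7.55 and 7.09 CPM in Tcf21 P30. The P30 libraries lay far under both P7 libraries, and the log2 change of -2.64 ± 0.18 (SE, adjusted p = 6.5e-05), a 6.24-fold decrease, was the largest among the 36. Ccnb1, which encodes cyclin B1, went from 31.9 and 24.0 CPM to 8.65, 7.74 and 5.77 CPM (-1.92 ± 0.19), and Ccnb2, for cyclin B2, fell by 1.95 on the log2 scale. Ccna2, the cyclin of S phase and G2, had a smaller decrease of -1.37 ± 0.17. Plk1 and Aurka, kinases of centrosome maturation and spindle assembly, changed by -1.59 ± 0.15 and -1.38 ± 0.19. Nek2, a centrosome kinase, was low throughout, at 3.98 and 4.33 CPM against 1.64, 2.47 and 1.76 CPM (-1.08 ± 0.26, adjusted p = 0.017). Its adjusted p was 0.086 and 0.12 without Tcf21 P7 replicate 1 and 2 and 0.063 without Tcf21 P30 replicate 3.

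Genes of chromosomes, centromeres and kinetochores fell as well. Top2a, the topoisomerase that untangles sister chromatids, was at 58.7 and 61.7 CPM in Tcf21 P7 and at 24.2, 15.8 and 22.9 CPM in Tcf21 P30 (-1.52 ± 0.19). Mki67, which encodes the chromosome coat protein Ki-67 (chromosome 7, 135689784 to 135716361), was at 31.5 and 37.6 CPM and then at 21.5, 9.26 and 12.5 CPM. The P30 values spread more than 2-fold, with the highest in the endothelial-rich replicate 1, and the change of -1.26 ± 0.32 had the highest adjusted p of the 34 decreases (0.028). It missed the threshold without Postn P7 replicate 1 or 2 (adjusted p = 0.054 and 0.056), without Tcf21 P7 replicate 1 or 2 (0.083 and 0.14) and without Tcf21 P30 replicate 3 (0.075). Cenpa, the histone variant that marks centromeres, changed by -1.33 ± 0.18, and Ndc80 and Nuf2, subunits of the complex that grips microtubules, by -1.44 ± 0.23 and -1.69 ± 0.18. Cenpe, a kinetochore motor, and Cenpf, a large protein of the outer corona, had smaller decreases of -1.07 ± 0.25 and -0.73 ± 0.19. Cenpe was not called without Tcf21 P7 replicate 1 (adjusted p = 0.097), nor Cenpf without Tcf21 P7 replicate 2 (0.16) or Tcf21 P30 replicate 3 (0.063).

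Among genes of the spindle checkpoint, Bub1b, which encodes the checkpoint protein BubR1, was at 45.9 and 35.0 CPM in Tcf21 P7 and at 9.15, 9.77 and 10.6 CPM in Tcf21 P30 (-2.04 ± 0.14). The checkpoint kinase gene Ttk fell by 1.94 on the log2 scale. Mad2l1, the checkpoint inhibitor of the anaphase-promoting complex, kept more of its level, at 23.5 and 20.1 CPM and then at 13.1, 12.9 and 13.1 CPM (-0.75 ± 0.14). Its adjusted p was 0.005, and 0.068 without Tcf21 P7 replicate 1. Bub1, a checkpoint kinase, had the largest standard errors of the 36 genes. It stood at 7.62 and 10.7 CPM in Tcf21 P7 and at 1.96, 1.40 and 4.89 CPM in Tcf21 P30, while the Postn P7 libraries differed from each other more than 2-fold, at 14.2 and 5.25 CPM. The groups did not overlap between the ages, but the change of -1.72 ± 0.61 was not called (adjusted p = 0.077). Without Tcf21 P30 replicate 3 it was -2.44 (adjusted p = 0.021), and DESeq2 gave an adjusted p of 0.008.

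All 3 genes of the chromosomal passenger complex, which corrects faulty attachments and then directs cytokinesis, fell with age. Birc5, for survivin, was at 23.0 and 26.4 CPM in Tcf21 P7 and at 6.88, 4.44 and 4.51 CPM in Tcf21 P30 (-2.23 ± 0.21), the second largest decrease. Aurkb, the kinase of the complex, changed by -1.79 ± 0.16 and Cdca8, for borealin, by -1.31 ± 0.15. Cdc20, the activator of the anaphase-promoting complex, changed by -1.53 ± 0.14, and its ubiquitin-conjugating enzyme gene Ube2c by -1.94 ± 0.13. Of the 6 spindle genes, Kif2c, a microtubule depolymerase, had the largest decrease (-1.97 ± 0.17) and Hmmr, a spindle assembly factor, the smallest (-0.88 ± 0.22). Kif11, the motor that separates spindle poles, changed by -1.50 ± 0.16. Tpx2 and Nusap1, microtubule proteins of spindle assembly, changed by -1.62 ± 0.13 and -1.38 ± 0.14, and Kif4, a chromosome-bound motor, by -1.20 ± 0.15. Hmmr missed the threshold without Tcf21 P7 replicate 1 (adjusted p = 0.058) or 2 (0.16) and without Tcf21 P30 replicate 3 (0.064).

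Of the 7 midzone and cytokinesis genes 6 fell. Racgap1, part of the centralspindlin complex, was at 58.7 and 50.8 CPM in Tcf21 P7 and at 15.3, 12.6 and 12.4 CPM in Tcf21 P30 (-2.02 ± 0.14). Its partner Kif23, a midzone motor, changed by -1.49 ± 0.15, and Prc1, which bundles midzone microtubules, by -1.43 ± 0.10. Ect2, which activates RhoA at the division plane, changed by -1.31 ± 0.13, and Anln, a scaffold of the contractile ring, by -1.01 ± 0.14. Kif20a, another midzone motor, changed by -0.97 ± 0.11. Kif20a shares 29.3% of its annotated exon length with Cdc23 on the opposite strand, and the strand setting of the counts is not given in the sources used here. Kif20b, a kinesin of the midzone and midbody (chromosome 19, 34922361 to 34975745), was at 3.69 and 4.21 CPM in Tcf21 P7 and at 5.11, 3.68 and 5.28 CPM in Tcf21 P30. Those ranges overlapped, and the change of 0.25 ± 0.22 (adjusted p = 0.42) had the opposite sign to the other 35.

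**Figure D3:**
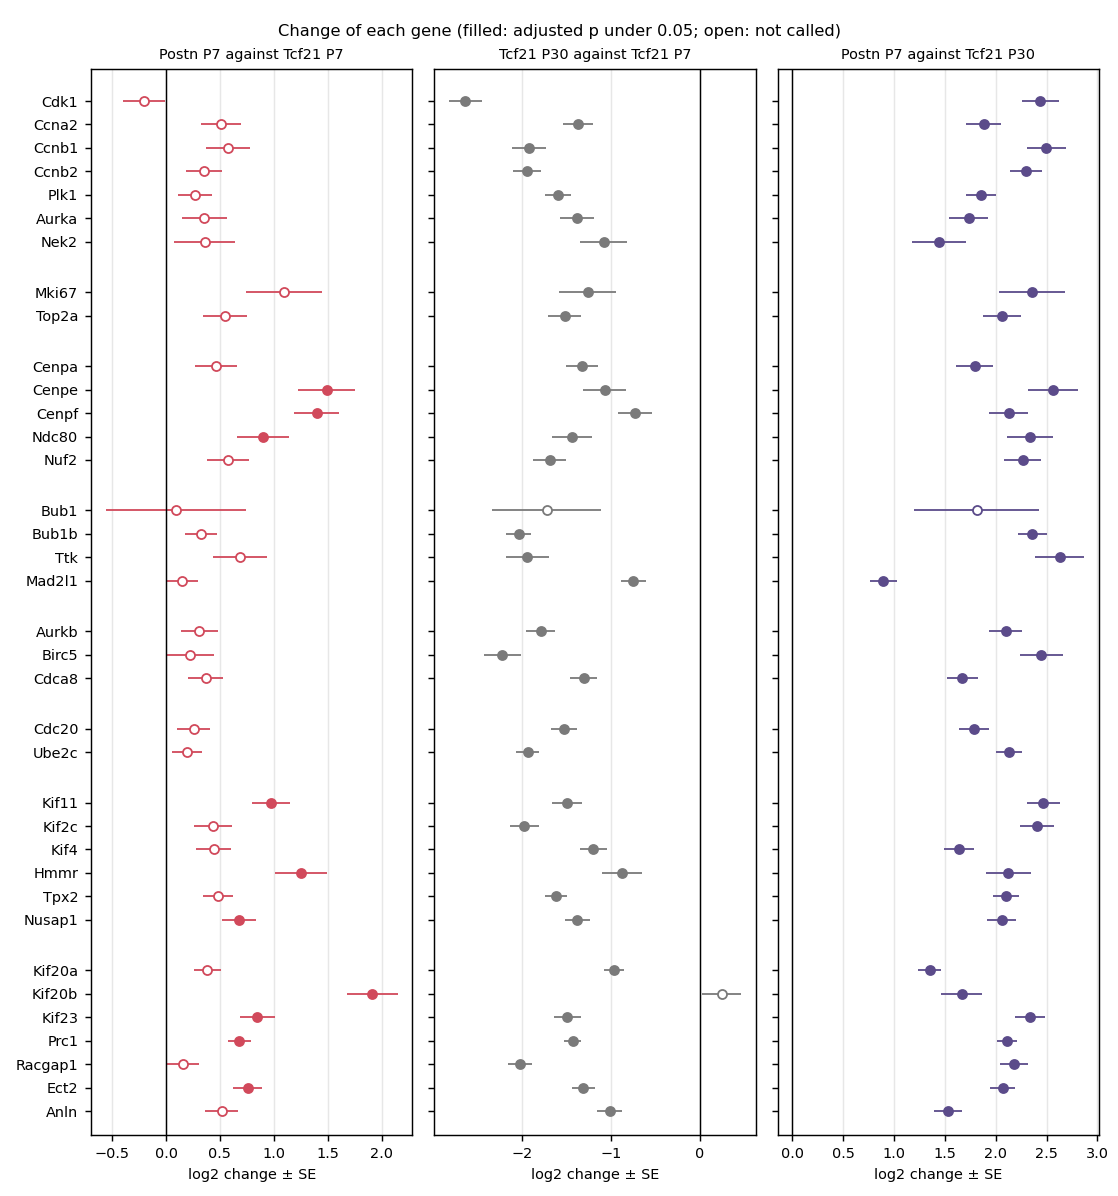
Change of each gene on the log2 scale with its standard error, in 3 comparisons from one fit of 7 libraries. With age 34 genes are lower in Tcf21-traced cells, 10 genes are higher in Postn P7 than in Tcf21 P7, and 35 are higher in Postn P7 than in Tcf21 P30.

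The Postn P7 and Tcf21 P7 libraries were compared to ask how the Postn-traced cells differ from the Tcf21-traced cells of one age. This comparison shares the Tcf21 P7 libraries with the comparison of ages. Of the 36 genes 10 were higher in Postn P7 and none lower, where 6.52% of all genes tested were called higher and 5.49% lower. The called genes were Kif20b, Cenpe, Cenpf, Hmmr, Kif11, Ndc80, Kif23, Ect2, Prc1 and Nusap1. Libraries did not overlap for 31 genes, all higher in Postn P7, where 31.4% of all genes were higher without overlap. The median log2 difference was 0.47, against 0.002 over all genes, and the estimate was above 0 for 35 genes. At an unadjusted p under 0.05 by edgeR were 22 of the 36 genes and 5362 of all 17636. With replicate 1 or 2 of Tcf21 P7 left out, where the single remaining library takes its spread from the other groups, 0 genes were called by edgeR (16 and 14 at an unadjusted p under 0.05). Calls over all genes then fell to 0.457% and 0.43% higher, while the median of the 36 genes was 0.53 and 0.44. The 10 genes had adjusted p of 0.052 to 0.23 in these fits. With both libraries summed 0 were called (12 unadjusted), where 0.479% of all genes were higher and the median was 0.47. Without Postn P7 replicate 1 or 2, which leaves 1 Postn P7 library, fewer of the 36 genes and fewer of all genes were called higher. The median of the 36 genes was then 0.374 or 0.565. Without Tcf21 P30 replicate 1 the count was 17, where 10.4% of all genes were higher. Without both endothelial-rich libraries, which leaves 1 Postn P7 library, the median of the 36 genes was 0.38. DESeq2 called 12 genes higher and limma-voom 13, where 7.41% and 6.44% of all genes were.

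Kif20b had the largest difference. It stood at 14.97 and 14.86 CPM for Postn P7 against 3.69 and 4.21 CPM for Tcf21 P7, a 3.77-fold higher level (1.91 ± 0.23, adjusted p = 0.0055). Both Postn P7 libraries lay above all 5 Tcf21-traced libraries of either age, and the difference from Tcf21 P30 was 1.67 ± 0.20 (adjusted p = 0.00082). Its raw counts were 283 and 232 in Postn P7, 65 and 73 in Tcf21 P7 and 81, 58 and 96 in Tcf21 P30. Kif20b was thus the one gene of the 36 that was called between the lineages at 7 days and not between the ages, although the difference between these effects was not tested.

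Kinetochore genes came next. Cenpe (chromosome 3, 135212537 to 135273611) was at 24.1 and 26.7 CPM for Postn P7 against 9.95 and 8.08 CPM for Tcf21 P7 (1.49 ± 0.26, adjusted p = 0.016). Cenpf (chromosome 1, 189640606 to 189688086) was at 32.5 and 35.7 CPM against 11.4 and 14.5 CPM (1.40 ± 0.21, adjusted p = 0.0098). In both genes the lower Postn P7 library exceeded the higher Tcf21 P7 library more than 2-fold. Ndc80 was higher by 0.90 ± 0.24 (adjusted p = 0.049), and this call was also lost without Tcf21 P30 replicate 3 (adjusted p = 0.074) or Postn P7 replicate 1 (0.16) or 2 (0.11). Cenpe missed the threshold without Postn P7 replicate 2 (adjusted p = 0.072), and Cenpf did not (0.048). Cenpa and Nuf2, at 0.47 ± 0.19 and 0.57 ± 0.20, were not called (adjusted p = 0.15 and 0.094).

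Among spindle genes Hmmr was at 25.9 and 20.9 CPM for Postn P7 against 8.81 and 10.9 CPM for Tcf21 P7 (1.25 ± 0.24). Kif11 was at 26.0 and 20.6 CPM against 12.1 and 11.7 CPM (0.97 ± 0.18), and Nusap1 at 32.5 and 37.0 CPM against 23.9 and 19.6 CPM (0.68 ± 0.15, adjusted p = 0.031). For each of these genes both Postn P7 libraries were above both Tcf21 P7 libraries. Without Postn P7 replicate 1 the adjusted p was 0.073 for Hmmr, 0.071 for Kif11 and 0.061 for Nusap1, and without replicate 2 it was 0.054 for Hmmr and 0.14 for Nusap1. Kif2c, Kif4 and Tpx2 were measured at differences of 0.43 to 0.48 and were not called (adjusted p = 0.061 to 0.14). In cytokinesis, Prc1 was at 101 and 90.2 CPM for Postn P7 against 59.2 and 60.6 CPM for Tcf21 P7 (0.68 ± 0.11, adjusted p = 0.012). Kif23 was higher by 0.84 ± 0.16 and Ect2 by 0.76 ± 0.14. Ect2 was lost without Postn P7 replicate 1 or 2 (adjusted p = 0.066 and 0.059) and Kif23 without replicate 2 (0.094). Kif20a (0.38 ± 0.13) and Anln (0.52 ± 0.15) missed the threshold with adjusted p of 0.084 and 0.064. Racgap1 differed by 0.15 ± 0.15 with overlapping libraries, while its partner Kif23 was called, although the difference between the partners was not tested.

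None of the 7 genes of cyclins, CDK1 and mitotic kinases was called between the lineages at 7 days. Cdk1 was at 51.1 and 37.0 CPM for Postn P7 against 48.1 and 53.4 CPM for Tcf21 P7, and its estimate of -0.20 ± 0.20 was the sole one below 0. Ccnb1, at 0.57 ± 0.21 (adjusted p = 0.11), had the largest estimate of these 7. No gene of the spindle checkpoint, the passenger complex or the cofactors of the anaphase-promoting complex was called either, with estimates from 0.09 (Bub1) to 0.69 (Ttk). Mki67 was at 78.5 and 69.1 CPM for Postn P7 against 31.5 and 37.6 CPM for Tcf21 P7. Its libraries were well apart, and the estimate was 1.09 ± 0.35, but the adjusted p of 0.096 missed the threshold. Mki67 was called by DESeq2 (adjusted p = 0.006) and limma-voom (0.029). Top2a, at 0.54 ± 0.20 (adjusted p = 0.12), was not called.

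Most of the genes called in this comparison were long. Annotated exon length, the union of all exons of a gene in GENCODE, ran from 1531 bases (Ccnb2) to 15433 bases (Cenpf). Of the 18 longer genes (5177 bases or more) 9 were called higher in Postn P7 and of the 18 shorter genes 1 was, Nusap1. Their median log2 differences were 0.72 and 0.35. Calls over all protein-coding genes leaned the same way with length. In the length range of the longer genes 524 were higher and 210 lower of 5451 (median 0.09), and in that of the shorter genes 208 were higher and 510 lower of 6863 (median -0.10). Across the 36 genes the change correlated with log length at r = 0.53 (rho = 0.56), and across 13997 protein-coding genes at r = 0.17 (rho = 0.27). These are correlations across genes of the same libraries, which are not independent replicates. When each library's trend on length was fitted as an offset, an alternative added after the data were seen, 9 of the 10 genes kept their call. Ndc80 did not (adjusted p = 0.058), and Cenpf moved to 1.12. Of all genes tested, 5.07% were called higher and 4.83% lower in that fit. For the change with age in Tcf21-traced cells r was 0.43 across the 36 genes and 0.03 across all, with medians of -1.31 in the longer and -1.76 in the shorter genes. Both comparisons use the Tcf21 P7 libraries. Between Postn P7 and Tcf21 P30, which leaves out the Tcf21 P7 libraries, r was 0.02 across the 36 genes and 0.10 across all (rho = 0.05 and 0.16), with medians of 2.12 in the longer and 2.10 in the shorter genes. Over all protein-coding genes 911 were higher and 593 lower in the range of the longer genes, and 751 were higher and 1094 lower in that of the shorter genes.

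**Figure D4:**
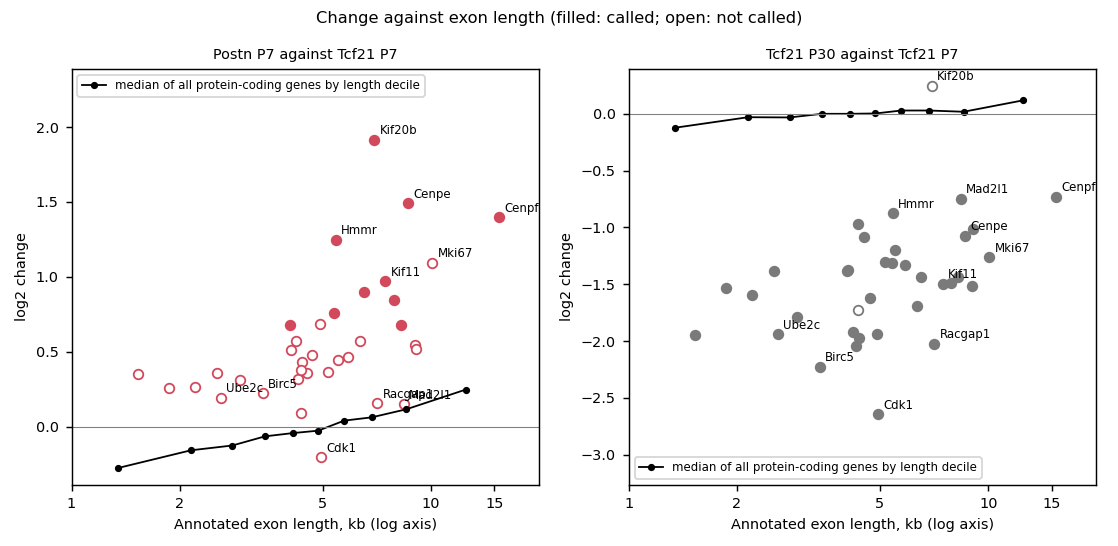
Log2 change of the 36 genes against annotated exon length (log axis) in both comparisons with Tcf21 P7, with the median of all protein-coding genes by length decile as a black line. Longer genes such as Cenpf, Cenpe and Mki67 sit higher in both panels, and all genes but Cdk1 lie above the black line on the left.

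Postn P7 and Tcf21 P30 differ in both traced lineage and age, which cannot be told apart between them. Of the 36 genes 35 were higher in Postn P7, where 11.7% of all genes tested were called higher and 12.5% lower, and no library overlapped for any of the 36, where 24.7% of all genes were higher without overlap. The median log2 difference was 2.10 against -0.01 over all genes. Ttk (2.63 ± 0.24), Cenpe (2.56 ± 0.24) and Ccnb1 (2.50 ± 0.19) had the largest differences and Mad2l1 (0.90 ± 0.14) the smallest. Bub1 was not called (1.82 ± 0.61, adjusted p = 0.08), and was without Tcf21 P30 replicate 3 (2.56, adjusted p = 0.021). With Tcf21 P30 replicate 1, 2 or 3 left out, 35, 35 and 36 genes were called higher, where 15.3%, 10.3% and 8.61% of all genes were. With any 1 library of the 7 left out, the median of the 36 genes was 2.01 to 2.22.

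Levels of different genes are comparable only per length. As group means in CPM per kb of exon, Cdc20 (21.2), Ccnb2 (20.1), Kif20a (14.5) and Ccna2 (13.5) led in Tcf21 P7, and the same 4 genes led in Postn P7 and in Tcf21 P30. Kif20a, which overlaps Cdc23, ranked first in Tcf21 P30 at 7.42 CPM per kb. Kif20b was the lowest of the 36 in Tcf21 P7 (0.568 CPM per kb) and stood at 2.14 CPM per kb in Postn P7, above only Ttk and Nek2. Ube2c shares 22.8% of its exon length with Tnnc2, Kif4 15.1% with Pdzd11, Ccna2 12.5% with Exosc9 and Prc1 11.1% with Rccd1, each on the opposite strand, so that reads there could belong to either gene. The other 31 genes had at most 7.09% in common with another gene.

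Other genes of cell division were taken from lists by known function. Over all genes tested, 15% were called lower with age and 16.7% higher. Of 31 further kinetochore and centromere genes tested, 23 fell with age and none rose, with a median of -1.05, led by Spc24 (-2.38 ± 0.22), a subunit of the Ndc80 complex. Of 30 further spindle, centrosome and cytokinesis genes 25 fell, led by Spag5 (-2.43 ± 0.18), a spindle and kinetochore protein. Between Postn P7 and Tcf21 P7, 4 of the 31 and 5 of the 30 were higher and none lower. Of all genes tested 6.52% were higher and 5.49% lower there. The called genes of these lists included the kinetochore scaffold Knl1 (1.36 ± 0.26) and the spindle pole gene Aspm (1.11 ± 0.17).

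Condensin and cohesin genes, which shape chromosomes and hold sister chromatids together, were called in both directions with age. Of 19 tested, 9 were higher in Postn P7 than in Tcf21 P7, against 6.52% of all genes tested. With age 5 fell and 5 rose, against 15% and 16.7% of all genes tested. Smc4, the condensin core subunit, was at 67.6 and 68.0 CPM for Postn P7, 27.7 and 30.4 CPM for Tcf21 P7 and 41.2, 40.9 and 42.4 CPM in Tcf21 P30. Its difference between the lineages was 1.22 ± 0.10 (adjusted p = 0.0017), and P30 lay between the P7 groups. Smc2, its partner, was higher in Postn P7 by 1.11 ± 0.19. Cdca5, for the cohesin protector sororin, and Ncaph, a condensin subunit, fell with age by 2.24 and 1.80 on the log2 scale. Of 17 subunits and regulators of the anaphase-promoting complex, 5 fell with age, where 15% of all genes tested fell. The inhibitor gene Fbxo5 led them (-0.90 ± 0.22). Between the lineages 1 was called higher and 2 lower, where 6.52% and 5.49% of all genes were. Cdc27 was higher (0.49 ± 0.10) and Anapc11 and Anapc13 lower (-0.50 ± 0.11 and -0.48 ± 0.12).

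Of 27 regulators of mitotic entry and cell cycle transcription factors tested, 16 fell with age, none rose and 11 were not called. Over all genes tested 15% fell and 16.7% rose. Mybl2, which encodes B-MYB, a partner of MuvB at CHR promoters, was at 11.8 and 12.1 CPM in Tcf21 P7 and at 0.947, 1.33 and 1.10 CPM in Tcf21 P30 (-3.40 ± 0.23). E2f8, a repressor of E2F targets, changed by -2.97 ± 0.25. In Postn P7 Mybl2 stood at 13.1 and 9.67 CPM. Of the 27 genes 2 were called higher there than in Tcf21 P7, where 6.52% of all genes tested were. They were Bora, an activator of PLK1 (0.89 ± 0.21), and Lin9, a MuvB subunit (0.87 ± 0.16).

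Genes of DNA replication act in S phase, before mitosis. Of 28 tested, none was called between Postn P7 and Tcf21 P7 by edgeR, where 6.52% of all genes were higher and 5.49% lower. At an unadjusted p under 0.05 were 0 of the 28, against 5362 of 17636 genes tested, and their median was -0.10. Mcm6, the most expressed, was at 158 and 142 CPM for Postn P7 against 133 and 145 CPM for Tcf21 P7. With age 24 of the 28 fell, where 15% of all genes tested did, with a median of -1.10, led by Mcm10 (-2.55 ± 0.30). The 28 genes gave sums of 1199 and 1026 CPM for Postn P7 libraries, 1183 and 1176 CPM in those of Tcf21 P7, and 526 to 599 CPM at P30. The ratio of summed mitosis to summed replication transcripts was 1.24 and 1.28 in Postn P7, 0.852 and 0.817 in Tcf21 P7 and 0.637, 0.601 and 0.644 in Tcf21 P30, without overlap between groups. The median exon length was 4178 bases in the replication list and 5056 bases in the 36 mitosis genes.

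**Figure D5:**
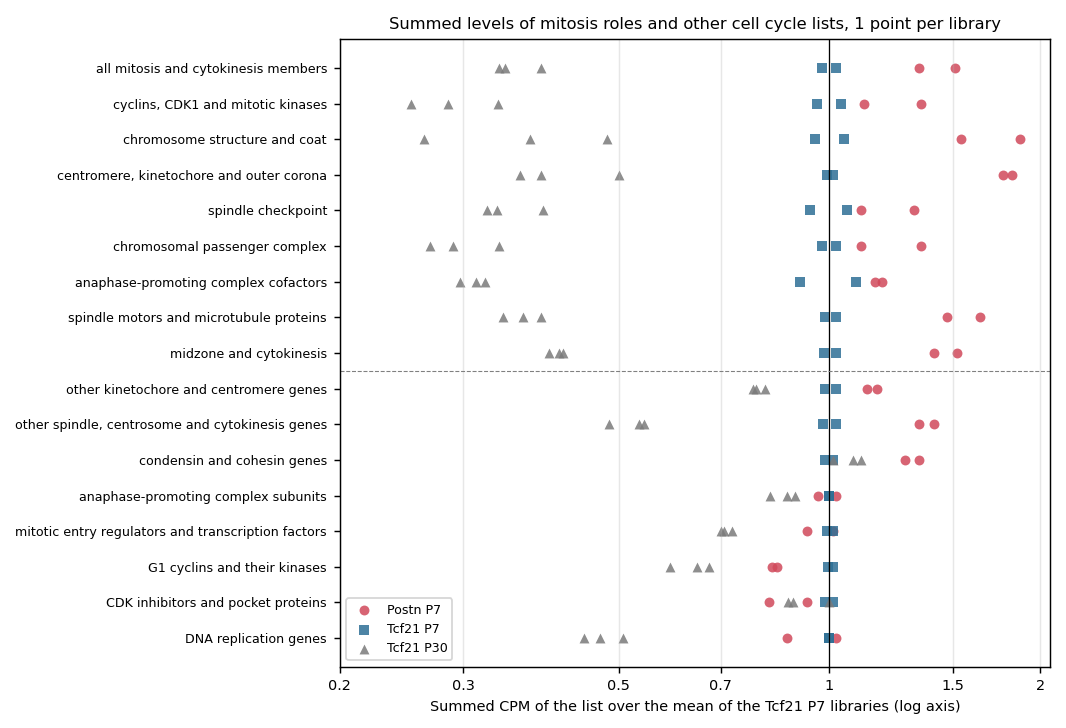
Summed CPM of all 36 mitosis genes, of their 8 roles (above the dashed line) and of 8 other cell cycle lists, each over the mean of the Tcf21 P7 libraries (log axis), with 1 point per library. The mitosis genes reach 1.51 and 1.34 in Postn P7 and 0.338 to 0.388 in Tcf21 P30, whereas the Postn P7 libraries fall on either side of 1 for DNA replication.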

How the data were processed

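The authors deposited raw counts per gene symbol, whole numbers with 1 column per library and no normalization, which were used as deposited. Per the submitters' processing notes, reads were aligned with STAR to GRCm38. The STAR version, counting program, annotation release and strand setting are not given in the sources used here. Counts were filtered with filterByExpr, scaled by TMM and fitted over all 7 libraries with edgeR 4.0.16 (robust quasi-likelihood) in R 4.3.3. Benjamini-Hochberg adjustment covered 17636 genes, with a threshold of 0.05. Each SE is the size of the log2 change over the root of its F statistic. Replicates are separate libraries, and the labels name no animals, litters or batches, so p-values measure only the spread between these libraries, which may be technical. Replicate libraries of each group differed by more than sampling noise (chi-square per degree of freedom 3.43 between the Tcf21 P7 libraries, 9.90 to 38.1 between others). Exon lengths and coordinates came from GENCODE M21 (GRCm38). DESeq2 1.42.0, limma 3.58.1, other scalings, no count filter, left-out libraries, a replicate block and length corrections were tried as alternatives; leaving out both endothelial-rich libraries and the length offsets were chosen after seeing the data. The tests were checked on simulated data in which a small share of the genes, drawn at random over all levels, was changed. Recovery there need not equal that in the data, where 6.52% of all genes were called higher and 5.49% lower. For Postn P7 against Tcf21 P7, 2 of 75 genes simulated at 1.5-fold were called, 19 of 57 at 2-fold and 49 of 61 at 4-fold. Of 16979 genes simulated without change 7 were called. A gene not called may thus still differ. The members, lists and tests were chosen with earlier results of these data known. Named genes were all 36 members and, per pathway list and comparison, up to 4 called genes with the largest changes or, with none, the most expressed. One gene that this rule names is not reported here.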

Additional observations from a re-analysis of the deposited data

How the results depend on the processing

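The counts of 34 genes lower with age and of 35 higher in Postn P7 than in Tcf21 P30 stayed within 1.5 times under every alternative run, at 29 to 35 and 35 to 36. The count of 10 genes higher in Postn P7 than in Tcf21 P7 did not. It was 19 when only these groups were fitted, 0 with the Tcf21 P7 libraries summed and 0 to 17 with each library left out in turn. It was 13 with library size alone as the scaling, 15 without a count filter and 10 with size factors as in DESeq2 or with upper-quartile factors. Calls over all genes, 6.52% higher as reported, were 9.73% when only these groups were fitted and 9.87% with library size alone. They were 6.37% without a count filter and 6.54% and 6.73% with the other factors. The cause was not tested. Bub1 changed sign in this comparison, to -0.008 with limma-voom, -0.81 without Postn P7 replicate 1, -0.12 without Tcf21 P7 replicate 1, -0.042 with the replicate block and -0.80 without both endothelial-rich libraries, and it ranged from -0.81 to 0.622 with each library left out. It was called in none of these. With the replicate number as a block, 8 genes were higher in Postn P7 than in Tcf21 P7, 31 lower with age and 36 higher in Postn P7 than in Tcf21 P30. Of all genes, 4.76%, 12.4% and 9.13% were called in these same directions in that fit. The labels give no shared origin for equal numbers, whose deviations correlated at 0.04 to 0.31 across genes, so the block was not used. Groups of 2 or 3 libraries limit the precision of every comparison.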

Other observations

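Genes listed as inhibitors of cyclin-dependent kinases or as pocket proteins were called in both directions with age. Of 10 tested, 3 rose and 3 fell, where 16.7% of all genes tested rose and 15% fell. Cdkn1a, for p21, was at 47.1 and 46.6 CPM in Tcf21 P7 and at 143, 142 and 125 CPM in Tcf21 P30 (1.55 ± 0.10, adjusted p = 5e-05). Its Postn P7 libraries, at 50.4 and 52.8 CPM, were 1.41 lower than Tcf21 P30 on the log2 scale. Cdkn2b, for p15, rose by 1.66 ± 0.29 from a low level of 1.82 and 1.27 CPM. Cdkn1c, the imprinted gene of p57, fell from 256 and 241 CPM to 126, 71.1 and 66.3 CPM (-1.50 ± 0.30), with the highest P30 value in the endothelial-rich replicate 1. None of the 10 was called between Postn P7 and Tcf21 P7 by edgeR. At an unadjusted p under 0.05 were 2 of them, against 5362 of 17636 genes tested.

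Of 8 G1 cyclins and their kinases 7 fell with age, where 15% of all genes tested fell. Among them were Ccne1, for cyclin E1 (-2.31 ± 0.44), and Ccnd1, for cyclin D1 (-0.87 ± 0.16). Ccnd1 was at 168 and 188 CPM in Tcf21 P7 against 121, 88.8 and 82.5 CPM in Tcf21 P30. Ccnd3, for cyclin D3, was the one gene called between the lineages, where 5.49% of all genes were lower in Postn P7. It was lower there, at 275 and 312 CPM against 422 and 424 CPM (-0.53 ± 0.12, adjusted p = 0.029).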
